A study of Mus musculus with 3 samples.

Results

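The inner medullary collecting duct cells described here are the cells to which the authors gave the cluster label IM-CD within the cell type CD (collecting duct). They were taken by that label alone, and numbered 10680 of the 181257 annotated cells and of the 49021 CD cells. Healthy control mice contributed 7379 of them, mice at day 28 after reversible unilateral ureteral obstruction (R-UUO) 1108, and mice at day 84 contributed 2193. These conditions are called D28 and D84 below.

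The study examined the renal medulla of male BALB/c mice long after ureteral obstruction was relieved. One ureter was clamped at 12 to 13 weeks of age, for 5 to 7 days depending on the strain, and the clamp was then removed. The paper followed BALB/c survivors of 7 days of clamping and gives no separate length for the sequenced mice. In the long-term groups the opposite kidney was taken out 10 days after the reversal, so that the day 28 and day 84 mice are survivors living on the previously obstructed kidney, whereas no surgery is stated for the healthy controls. Medullas of 3 to 4 mice were combined in each pool, and single cells of fixed tissue were measured with probe pairs (10x Genomics Flex), the pool being marked by a barcode on the probes. There were 4 control pools, 4 at day 28 and 2 at day 84, and the pool is the replicate throughout.

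The collecting duct is the last segment of the renal tubule, where the water permeability of the principal cells sets the final concentration of the urine. Vasopressin moves the water channel Aqp2 into their apical membrane, while Aqp3 lets water leave across the basolateral side, and the inner medullary segment also carries the urea transporter Slc14a2. The other CD clusters in the annotation are deepIM-CD, nearer the papillary tip by its name, OM-CD_a and OM-CD_b of the outer medulla, Uro, the urothelium, and InjuredCD. Aqp2 and Aqp3 are markers of IM-CD cells, although the paper describes both in CD clusters generally. Values of single genes were not analysed here, so the label could not be checked against them. It is used as the authors gave it.

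The libraries differed before any cluster was considered. The median unique molecular identifier (UMI) count per cell over all clusters was 1139 to 1578 in the control pools, 1566 to 3302 at D28, and 911 and 751 at D84. UMI counts were fractional in Control 1 and whole in every other pool. Within a condition, a pair of pools shared a median of 25.8% (control), 21.8% (D28) or 24.3% (D84) of the droplet barcodes of IM-CD cells, against 1.89% to 2.27% across conditions. Each condition therefore has the pattern of a droplet run of its own, and run and condition cannot be told apart. Where an IM-CD cell shared a droplet with a cell of another pool, that partner was also IM-CD in 9.26% of cases in the controls, 1.39% at D28 and 2.76% at D84, beside IM-CD shares of 9.09%, 1.80% and 4.45% in the partner pools.

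IM-CD cells made up a smaller part of the cells labelled CD at D28 than in healthy medulla. That label includes Uro and InjuredCD, whose own shares rose at D28 by 1.98 and 6.62 in log2 odds. The IM-CD share of CD cells was 44.0%, 21.9%, 26.9% and 24.0% in the 4 control pools. At D28 it was 11.5%, 11.3%, 13.4% and 5.90%, and the counting error of the lowest pool spans 5.09% to 6.83% (95% Wilson interval, which covers counting error only). At D84 it was 10.4% in one pool and 21.7% in the other. All 4 D28 pools lay below the lowest control pool, as they did for 28.6% of the 7 features tested (the 6 CD clusters and the combined set of deepIM-CD and IM-CD), whereas the second D84 pool almost reached it.

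On the scale of log2 odds the share fell by 1.83 at D28 (standard error, SE, 0.433; limma adjusted p = 0.00190; exact permutation p = 0.0286, the smallest that 4 pools against 4 can give). Of these 7 features 85.7% passed the threshold at D28, so that a changed share was the rule among CD clusters. At D84 the change was -1.16 (SE 0.531, limma adjusted p = 0.0600), with 57.1% of the features passing, and the exact permutation p was 0.133. The smallest p that 4 pools against 2 can give is 0.0667, so that no D84 comparison could reach 0.05 in that test. Without D28 pool 4 or without D84 pool 2 the D84 change passed in limma (-1.16, adjusted p = 0.00845, and -1.78, adjusted p = 0.0366). In every fit that leaves out a D84 pool, the pool that remains is assumed to vary like those of the other conditions. Among CD cells of 2 fixed ranges of UMIs, given with the depth of the cells further on, the D28 call was lost (limma adjusted p = 0.0623 and 0.333).

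Taken over all cells, the share was 15.2%, 5.95%, 8.77% and 8.35% in the control pools. It was 1.95%, 1.67%, 2.75% and 1.07% at D28, and 3.35% and 6.45% at D84. The D28 pools were again all below the controls, while one D84 pool was above the lowest control. The fall at D28 was 2.48 on the log2 odds scale (SE 0.413, limma adjusted p = 8.05e-04 over 25 clusters, exact permutation p = 0.0286), with 36% of clusters lower and 52% higher past the threshold in the same comparison. At D84 the change was -1.03 (limma adjusted p = 0.122, with 48% of clusters called). From D28 to D84 it was 1.45 upwards, with pools that did not overlap, as in 24% of clusters, but an adjusted p of 0.0801 in limma, and among cells with 1000 to 1500 UMIs it turned to -1.70 (limma adjusted p = 0.150).

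The paper reports that the outer medulla was present to a variable degree in the dissected medullas. It states that this limits how precisely changes in outer medullary cells can be measured. Shares and ratios that count such cells in the denominator carry the same limit. Cells of the proximal tubule, which lies outside the inner medulla, varied along with the IM-CD share. They were 0.113% to 3.02% of cells in the control pools, 2.95% to 22.8% at D28, and 3.60% and 7.64% at D84. With proximal tubule cells left out of the total, the IM-CD share at D28 still fell, by 2.25 in log2 odds (limma adjusted p = 0.00114), and with only collecting duct and loop of Henle cells in the total it fell by 2.13 (limma adjusted p = 0.00103).

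**Figure D1:**
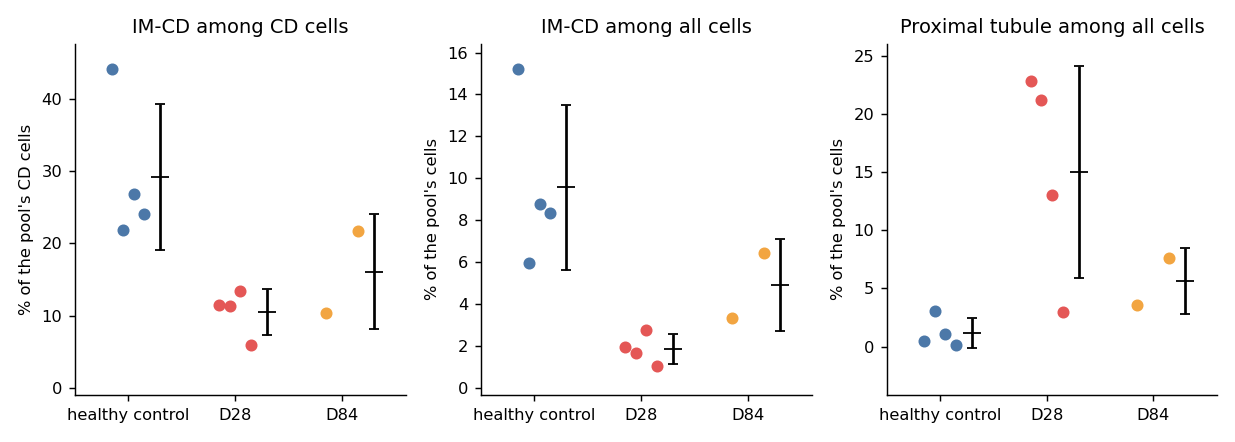
IM-CD cells as a percentage of the CD cells (left) and of all cells (middle) of each pool, and proximal tubule cells as a percentage of all cells (right). Each point is a pool, and the bar beside it is the mean with its SD (n = 4, 4 and 2 pools). All 4 D28 pools lie below every control pool in both IM-CD panels, with 5.90% to 13.4% of CD cells against 21.9% to 44.0%.

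The populations relative to which IM-CD was lower were resolved by the number of IM-CD cells per cell of each other cluster. At D28 this ratio was lower past the threshold for 18 of the 24 other clusters, or 75% of them, and higher for 0 (limma, also 18 at an unadjusted p under 0.05, all of them lower). In 17 of them, 70.8% of the 24, the D28 pools were also all below the controls. All 24 ratios share the same IM-CD counts and so are not independent of each other. The 6 clusters without a call were deepIM-CD, ATL and IM-TL (thin limbs of the loop of Henle), EndoVR/papilla (vasa recta and papillary endothelium), Fib and Endo_b.

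Against the deepest collecting duct cells, IM-CD kept no single direction. There were 1.99, 0.608, 0.802 and 0.559 IM-CD cells per deepIM-CD cell in the control pools, 0.763, 0.983, 0.482 and 1.84 at D28, and 0.786 and 1.60 at D84. The ranges overlapped, although D28 pool 3 lay below every control and Control 1 above every pool after R-UUO. The log2 change was 0.07 at D28, with a 95% interval from -1.20 to 1.34, and 0.38 at D84, with an interval from -1.17 to 1.94, so changes of more than 2-fold either way are within the error.

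Against the outer medullary collecting duct, whose cells fall under the limit of dissection given above, the IM-CD ratio fell at D28. There were 1.86, 0.849, 0.855 and 1.01 IM-CD cells per OM-CD_a cell in the controls, 0.444, 0.404, 0.674 and 0.254 at D28, and 0.502 and 0.982 at D84. The log2 change was -1.37 at D28 (SE 0.508, limma adjusted p = 0.0248), with no overlap between pools, and -0.62 at D84 (limma adjusted p = 0.448), where the second pool lay within the control range. Against OM-CD_b the fall was larger, from 1.91 to 10.1 IM-CD cells per OM-CD_b cell in the control pools to 0.301 to 0.878 at D28 and 0.706 and 1.77 at D84. The log2 changes were -3.00 (limma adjusted p = 5.01e-04) and -2.05 (limma adjusted p = 0.0436), and neither time overlapped the controls.

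Among the CD clusters, the ratio changed most against urothelium and injured collecting duct cells. Control pools held 4.76 to 8.84 IM-CD cells per Uro cell, against 0.306 to 1.15 at D28 and 0.469 and 1.19 at D84, a log2 change of -3.29 at D28 (limma adjusted p = 1.21e-04) and of -3.20 at D84 (limma adjusted p = 0.00149). InjuredCD cells were few in the controls, which held 85.1 to 248 IM-CD cells for each. At D28 there were 0.205 to 1.14 and at D84 there were 0.565 and 1.77, and InjuredCD cells outnumbered IM-CD cells in 4 of these 6 pools. The log2 changes were -7.79 and -6.98 (limma adjusted p = 2.19e-07 and 1.67e-05).

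Several clusters of the loop of Henle gave a call at D28. The changes were largest for InjuredLOH (-8.49), OSOM-TAL_b (-5.73, limma adjusted p = 3.79e-05) and OSOM-TAL_a (-3.13, limma adjusted p = 1.61e-04) of the thick limb, and smaller for DTL (descending thin limb) and ISOM-TAL (thick ascending limb of the inner stripe). IM-CD cells per DTL cell were 0.473 to 1.37 in the controls and 0.144 to 0.345 at D28, with a log2 change of -1.58 (limma adjusted p = 0.0121, exact permutation p = 0.0286). At D84 they were 0.431 and 0.684, overlapping the controls. Per ISOM-TAL cell there were 0.850 to 5.69 in the controls and 0.369 to 0.908 at D28, and these ranges overlapped by 1 pool on each side. That change was -2.15 with a limma adjusted p of 0.00557 and an exact permutation p of 0.0571. The ratio at D84, 2.40 and 1.98, was inside the control range.

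Apart from DTL, which is given above, the ratios to the other inner medullary clusters overlapped the controls at D28. IM-CD cells per ATL cell were 0.516 to 1.17 in the controls, 0.572 to 0.791 at D28, and 0.758 and 1.22 at D84. Per IM-TL cell they were 1.06 to 2.28, 0.291 to 1.57, and 1.23 and 2.46. D28 pool 4, the pool with the lowest IM-CD share, held the 0.291. Per EndoVR/papilla cell the values were 2.06 to 3.91 in the controls and 1.68 to 20.8 at D28, where that same pool held only 8 such endothelial cells, and 8.84 and 6.71 at D84. Both D84 pools were above all controls in this last ratio, as in 8.33% of clusters, with a log2 change of 1.58 (limma adjusted p = 0.162).

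The 3 other clusters whose ratio changed most at D28 were InjuredLOH, PT-S1S2 (proximal tubule) and PT-S2, at -8.49, -8.27 and -7.56 on the log2 scale (limma adjusted p = 4.63e-07, 2.19e-07 and 3.46e-05). At D84, 10 of 24 ratios, or 41.7%, were lower past the threshold and 0 higher (limma; 11, or 45.8%, passed at an unadjusted p under 0.05). Between D28 and D84 the ratio rose for OSOM-TAL_a by 2.31 (limma adjusted p = 0.0498) and for PT-S1S2 by 3.49 (limma adjusted p = 0.0223), 8.33% of the 24 (7, or 29.2%, at an unadjusted p under 0.05). No such call was left without D28 pool 1, D28 pool 2 or either D84 pool, 1 was left without D28 pool 4 or without Control 3, and 5 were made without Control 2.

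**Figure D2:**
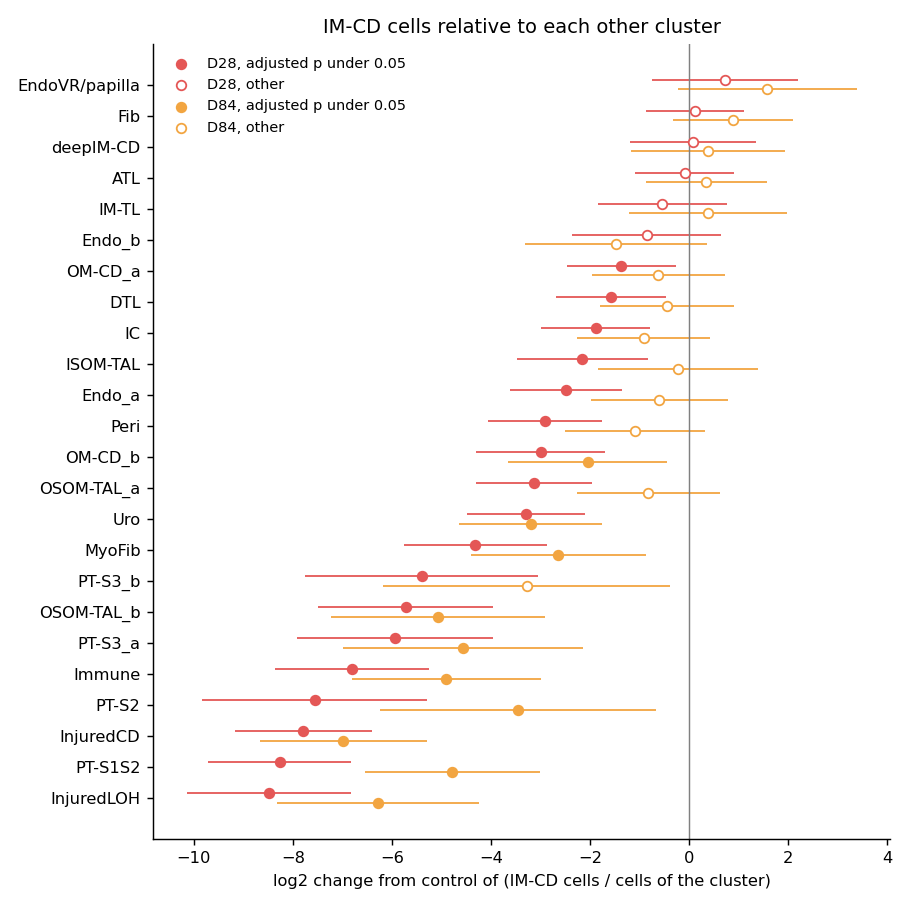
Log2 change from healthy control in the number of IM-CD cells per cell of each of the 24 other clusters, at D28 and D84, with the 95% interval from limma. Filled points have an adjusted p under 0.05. The changes at D28 run from 0.72 for EndoVR/papilla to -8.49 for InjuredLOH.

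IM-CD cells carried few transcripts for collecting duct cells. Their median UMI count was the lowest of the CD clusters with at least 20 cells in 8 of the 10 pools and the second lowest in the other 2, where OM-CD_a was lower. Per cell it was 1077, 1279, 1094 and 1097 UMIs in the control pools, 1742, 1720, 1673 and 1001 at D28, and 669 and 586 at D84. Day 84 lay below every other pool, as in 88.2% of clusters against the controls, and D28 pool 4 lay below all controls while the other 3 D28 pools were above them.

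The D28 change in log2 median UMIs was 0.40 (SE 0.247, limma adjusted p = 0.131 over 17 clusters, of which 58.8% were higher past the threshold), and without D28 pool 4 it was 0.59 and passed (adjusted p = 0.0153). At D84 the median fell by 0.86 (SE 0.303, limma adjusted p = 0.0183), as it did past the threshold in 52.9% of the clusters. The exact permutation p was 0.0667, the smallest possible. The limma call was lost without either D84 pool or without Control 2. It was also lost when only cells with 500 genes or more and no more than 5% mitochondrial UMIs were kept (-0.68, limma adjusted p = 0.0805). That filter removes a larger part of the IM-CD cells at D84 than in the controls, since their median in the second D84 pool was 500 genes.

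The depth of a pool is shared by its cells, so IM-CD was also set against other collecting duct cells of the same pool. The median of IM-CD over that of all other CD cells was 0.467, 0.330, 0.386 and 0.288 in the controls, 0.370, 0.569, 0.526 and 0.428 at D28, and 0.418 and 0.425 at D84. These ranges overlapped, and the log2 changes of 0.37 and 0.22 did not pass (limma adjusted p = 0.127 and 0.438, with 43.8% and 25% of 16 clusters called). The D28 change passed without Control 1 (0.49, limma adjusted p = 0.0303) or without D28 pool 1 (0.48, limma adjusted p = 0.0486).

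The mixture of the other CD clusters had itself changed, and single clusters gave a different picture. Set against deepIM-CD, the IM-CD median was a fraction of 0.181 ± 0.0134 in control pools (SD, n = 4), 0.347 ± 0.0618 (SD, n = 4) at D28 and 0.298 ± 0.0437 (SD, n = 2) at D84. The highest control pool, 0.198, was below the lowest pool after R-UUO, 0.267, as was so for 6.25% of clusters at D28 and 12.5% at D84. The ratio rose by 0.93 on the log2 scale at D28 (SE 0.203, limma adjusted p = 1.25e-04 over 16 clusters, 31.2% called). The exact permutation p for this rise was 0.0286. At D84 the ratio rose by 0.71 (limma adjusted p = 0.0258, 18.8% called, exact permutation p = 0.0667). The deepIM-CD medians themselves were 5538 to 6997 UMIs in the controls, 3060 to 6475 at D28, and 2507 and 1783 at D84. The D84 call was lost without any 1 control pool or either D84 pool (adjusted p from 0.0603 to 0.398), and with the probe barcode as a block (0.68, adjusted p = 0.0764).

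Against OM-CD_a the direction was the opposite. The 2 clusters had nearly equal medians in the controls, a ratio of 1.03 ± 0.0532 (SD, n = 4), and IM-CD held 0.729 ± 0.141 (SD, n = 4) of the OM-CD_a median at D28 and 0.867 ± 0.0403 (SD, n = 2) at D84. The control pools ran from 0.989 to 1.11 and those after R-UUO from 0.575 to 0.895, without overlap, as in 18.8% of clusters at D28 and 50% at D84. At D28 the change was -0.52 (SE 0.203, limma adjusted p = 0.0368, exact permutation p = 0.0286), and the limma call was lost when any control pool, D28 pool 4 or either D84 pool was left out, with adjusted p from 0.0539 to 0.186, or when D84 was left out of the fit (adjusted p = 0.0541). At D84 it was -0.25 (limma adjusted p = 0.499).

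**Figure D3:**
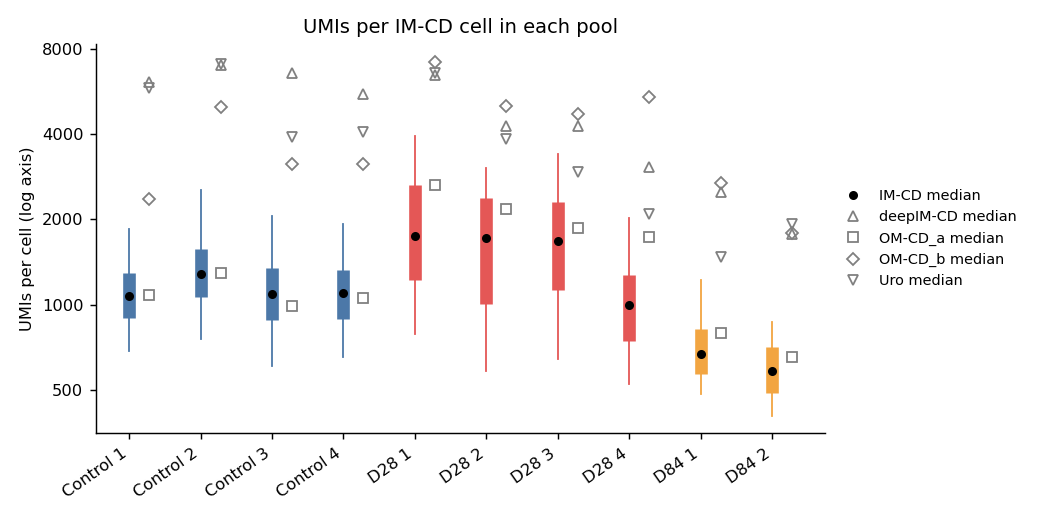
UMIs per IM-CD cell in each pool on a log axis, with the median as a black point, the quartiles as a thick bar and the 5th to 95th percentiles as a thin line. Open symbols give the medians of 4 other CD clusters in the same pool. IM-CD and OM-CD_a lie close together in the controls, at 989 to 1293 UMIs for both, and deepIM-CD lies at 5538 to 6997.

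The cells also spread more widely at D28. The third quartile of UMIs over the first was 1.44, 1.48, 1.53 and 1.49 in the controls, 2.17, 2.38, 2.03 and 1.71 at D28, and 1.44 and 1.45 at D84. Every D28 pool exceeded every control, as in 47.1% of the 17 clusters, and every D84 pool, as in 76.5%. OM-CD_a did the same, with 1.36 to 1.53, 1.69 to 1.87, and 1.51 and 1.40. More than 2500 UMIs were found in 0.640% to 5.25% of control IM-CD cells, in 30.3%, 21.4%, 18.5% and 1.81% of D28 cells, and in 0.151% and 0 of 1530 cells at D84. Among the other CD cells of the same pools 48.6% to 62.5%, 45.9% to 79.1%, and 30.5% and 23.0% passed that mark.

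The share of IM-CD differed with the depth of the cells counted. Among CD cells with 500 to 750 UMIs it was 51.3% ± 12.6 in the control pools (SD, n = 4), 43.5% ± 10.6 (SD, n = 4) at D28 and 36.9% ± 7.47 (SD, n = 2) at D84. At 1000 to 1500 UMIs it was 50.6% ± 6.76, 26.8% ± 12.5 and 3.83% ± 3.45, and the control pools, from 45.3% to 60.5%, were above all others, which reached at most 40.8%. In that range 28.6% of the 7 features separated downwards at D28 and 42.9% at D84. At 2500 UMIs and over it was 1.32% ± 0.694, 3.36% ± 2.09 and 0.0288% ± 0.0407.

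With 1000 to 1500 UMIs all D28 pools lay below the controls, as in 28.6% of the features. Held to these windows, however, the fall at D28 did not pass in limma. It was -1.61 on the log2 odds scale with 1000 to 1500 UMIs (limma adjusted p = 0.0623) and -0.65 with 500 to 1000 UMIs (limma adjusted p = 0.333). With CD cells below the median UMI count of their own pool, which keeps 71.9% to 98.8% of the IM-CD cells, it was -2.03 and the pools did not overlap, as in 28.6% of the features (exact permutation p = 0.0286). In that shallower part IM-CD was 63.3%, 41.5%, 43.0% and 46.8% of control CD cells and 22.2%, 19.8%, 24.0% and 11.4% at D28, with 20.4% and 42.8% at D84. Over all cell types the share fell at D28 in both windows, by 2.51 with 1000 to 1500 UMIs (limma adjusted p = 0.00882) and by 1.74 with 500 to 1000 (limma adjusted p = 0.00517).

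**Figure D4:**
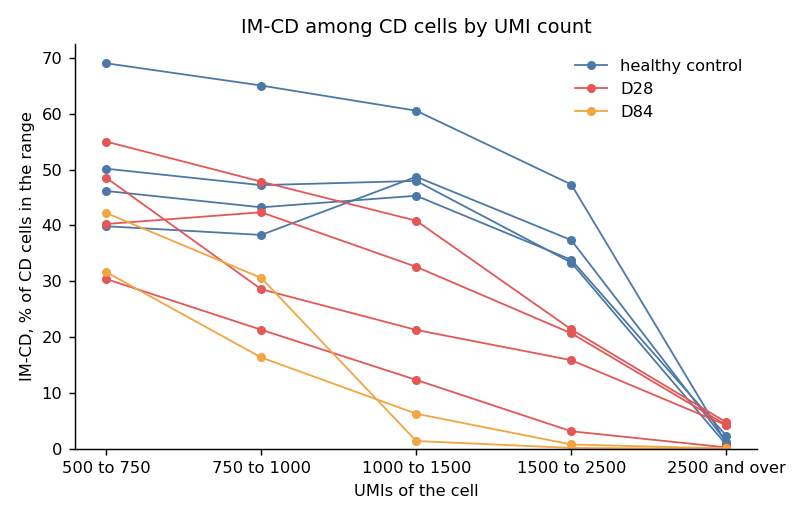
IM-CD cells as a percentage of the CD cells in 5 ranges of UMIs per cell, 1 line per pool. Controls stay between 38.3% and 69.0% up to 1500 UMIs, whereas the D84 pools drop from 42.2% and 31.6% at 500 to 750 UMIs to 1.39% and 6.27% at 1000 to 1500.

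Detected genes per cell were lowest at D84 (exact permutation p = 0.0667 against the controls, the smallest possible). The median per IM-CD cell was 962, 1021, 892 and 897 genes in the controls, 1289, 1258, 1218 and 815 at D28, and 577 and 500 at D84, where both pools were below all others (as in 94.1% of clusters against the controls and 100% against D28). The log2 change was 0.26 at D28 (limma adjusted p = 0.213, with 58.8% of 17 clusters called) and the median fell by 0.81 at D84 (SE 0.232, limma adjusted p = 0.00367, with 76.5% lower; without D84 pool 2 -0.71, adjusted p = 0.0887).

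A fixed range of UMIs did not make these cells alike in depth. Among IM-CD cells with 500 to 1000 UMIs the median was 777, 730, 700 and 712 genes in the controls, 694, 586, 658 and 636 at D28, and 572 and 544 at D84, from 33 to 1171 cells in a pool. Cells under 750 UMIs, however, were 21.7% to 31.4% of them in the controls, 33.3% to 60.0% at D28, and 70.2% and 76.9% at D84. The log2 changes of -0.18 at D28 (SE 0.0547, limma adjusted p = 0.00399 over 8 clusters, of which 62.5% were lower) and of -0.39 at D84 (SE 0.0670, limma adjusted p = 3.00e-06, with 87.5% lower) therefore still contain a difference in UMIs. No pool after R-UUO reached the lowest control, as was so for 37.5% of clusters at D28 and 87.5% at D84. The exact permutation p was 0.0286 at D28 and 0.0667 at D84, the smallest possible in each.

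To set the depth equal, genes were read at 750 UMIs from a line through log2 genes on log2 UMIs of the same cells, fitted in each pool after the data were seen. IM-CD cells then had 684, 636, 636 and 641 genes in the controls, 617, 601, 621 and 634 at D28, and 637 and 602 at D84. The D28 pools lay just below the lowest control, and one D84 pool lay within the control range. The log2 change shrank to -0.07 at D28 (SE 0.0292, limma adjusted p = 0.0477 over 8 clusters, of which 50% were lower; exact permutation p = 0.0286) and to -0.07 at D84 (SE 0.0358, limma adjusted p = 0.177, with 0% lower). Control 1, the pool with fractional UMIs, was the highest, and without it the D28 change was -0.04 and did not pass (limma adjusted p = 0.146). Among deeper cells, in control and D28 pools alone, the D28 change was -0.05 with 1000 to 1500 UMIs (limma adjusted p = 0.435) and -0.01 with 1500 to 2500 (limma adjusted p = 0.887).

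Set against D28, IM-CD cells at D84 changed by -1.26 in log2 median UMIs and by -1.07 in median genes (limma adjusted p = 1.52e-04 and 3.03e-05), where 100% of the clusters tested were lower in each. With 500 to 1000 UMIs the change in genes was -0.20 (limma adjusted p = 0.00983, with 37.5% of clusters lower). On the line at 750 UMIs it was 0.0029 (limma adjusted p = 0.936). The exact permutation p was 0.0667 for median UMIs and for median genes, the smallest possible. It was 0.133 with 500 to 1000 UMIs and 0.867 on the line.

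Mitochondrially encoded transcripts, which specify subunits of the respiratory chain, were scarce in IM-CD cells even in healthy medulla. They made up 0.780%, 1.55%, 0.812% and 0.705% of the summed UMIs of the control pools, the lowest of the CD clusters in all 4, against 3.59% to 4.13% in the other CD cells. OM-CD_a was close to IM-CD, with 0.855% to 1.59%, and deepIM-CD held 3.80% to 4.40%.

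After obstruction hardly any were left in the deposited counts. The share was 0.156%, 0.0137%, 0.0272% and 0.0210% at D28, and 0.0302% in the first D84 pool. The second D84 pool had 0 of 929698 UMIs, which allows up to 3.23e-04% at a floor of 3 counts. With 0.01 added to each percentage the log2 change was -4.32 at D28 (SE 0.774, limma adjusted p = 7.62e-06) and -5.52 at D84 (SE 0.947, limma adjusted p = 3.95e-06). By exact permutation p was 0.0286 at D28 and 0.0667 at D84, the smallest possible in each. The limma p draws its spread from clusters of the same pools and is too small for that reason. A fall was called in 94.1% of the 17 clusters at each time. These sizes depend on the amount added, and with 0.05 they were -3.39 and -3.93. Without D84 pool 2, the pool at 0, the D84 change was -4.52, and without D84 pool 1 it was -6.53. It was -4.94 at D28 without D28 pool 1. All of these passed in limma.

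Cells with no mitochondrial UMI at all were 0.135%, 0 of 1447, 0.475% and 2.30% of IM-CD cells in the controls. They were 33.1%, 86.8%, 79.3% and 88.0% at D28, and 87.8% and 100% at D84 (exact permutation p = 0.0286 and 0.0667, on log2 odds). The pools separated from the controls in this way in 100% of the 17 clusters at both times. Among the other CD cells of the same pools the shares were 0 to 0.669% in the controls, 23.6% to 61.6% at D28, and 50.7% and 100% at D84. Those cells had higher median UMIs, and a deeper cell is less likely to show 0. In D28 pool 1 they held 0.0968% mitochondrial UMIs against 0.156% in IM-CD, though fewer of them were at 0. These shares therefore do not compare the loss between the 2 groups of cells. D28 pool 1 stood apart from its group. IM-CD cells with 500 to 1000 UMIs alone gave 0 to 1.71% in the controls, 21.2% to 90.9% at D28, and 90.6% and 100% at D84. In the second D84 pool every CD cell was at 0, whereas ISOM-TAL cells of that pool held 3.88%. The authors describe an ambient RNA correction of the counts, and its part in these zeros was not tested.

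A loss in IM-CD beyond that of the other CD cells of its pool was not shown in either direction. The other CD cells fell to 0.0254% to 0.244% at D28 and to 0.0824% and 0 at D84. In the second D84 pool IM-CD was at 0 as well, so its difference was 0 by construction. Other pools after R-UUO lay close to the 0.01 added, which draws their differences towards 0 and so upwards from the controls. The comparison therefore cannot decide whether IM-CD lost more or less than the other CD cells. The difference of log2 values changed by 1.16 at D28 (95% interval from -0.48 to 2.80, limma adjusted p = 0.179, with 68.8% of 16 clusters called) and by 1.45 at D84 (95% interval from -0.56 to 3.46, limma adjusted p = 0.243, with 31.2% called). The D28 change passed without D28 pool 4 (1.87, adjusted p = 0.0116) and with 0.05 added in place of 0.01 (1.47, adjusted p = 0.0346).

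**Figure D5:**
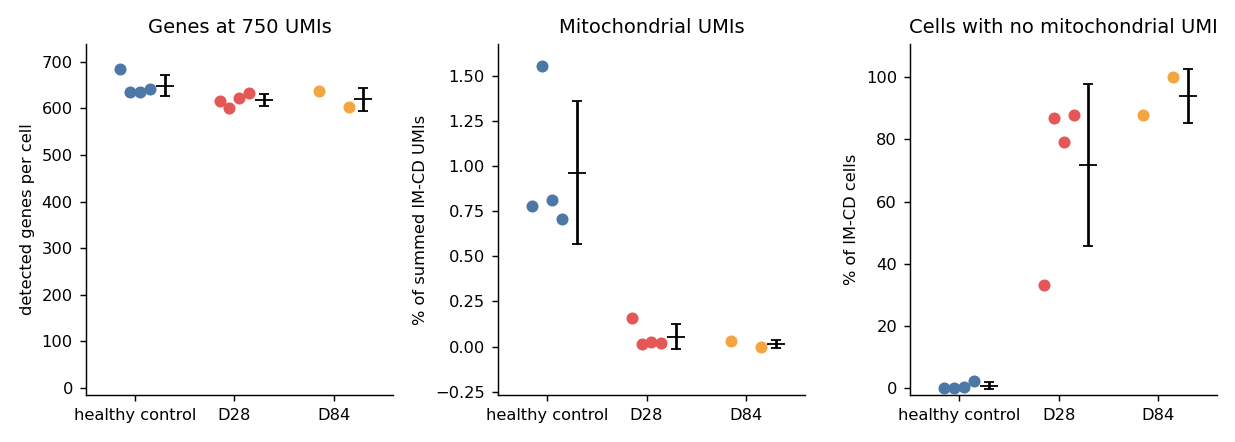
Detected genes per IM-CD cell at 750 UMIs, from the line fitted in each pool (left), mitochondrial UMIs as a percentage of summed IM-CD UMIs (middle), and IM-CD cells with no mitochondrial UMI (right), for each pool, with the mean and SD beside the points (n = 4, 4 and 2 pools). Control pools hold 636 to 684 genes, a range that one D84 pool reaches, and 0.705% to 1.55% mitochondrial UMIs, which no pool after R-UUO reaches.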

How the data were processed

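The authors counted UMIs with Cell Ranger (7.1, build mm10, per the submitters' notes) and kept cells that had at least 300 genes and no more than 10% mitochondrial reads. They then subtracted ambient RNA (SoupX), took out doublets (scDblFinder and mixed profiles), and joined and clustered the pools in Seurat. For each cell the authors deposited a UMI count after that correction (fractional, so an expected count, in Control 1), the count of detected genes, the mitochondrial percent and the labels of pool, type and cluster.

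Values were computed per pool. Shares (as log2 odds, 0.5 cells added to each part), medians and percentages (as log2) were compared in a single two-sided limma fit of the 3 conditions (3.58.1, R 4.3.3). Its p-values were adjusted over clusters by Benjamini-Hochberg, at a threshold of 0.05. Shares and ratios used every cluster, and the other measures those with at least 20 cells in every pool. All exact permutation tests were two-sided and compared means of pools. Clusters of a pool share its depth, so limma's p for UMIs and genes treats related values as separate. Mitochondrial shares fell in nearly all clusters together, so the same holds for their limma p. In the main results an exact permutation p is given as well where such a change passed. Pools are the labelled replicates, each of several mice. The fits were tested on simulated data. Tables and plots used Python 3.11.15, pandas 2.3.3 and matplotlib 3.10.9.

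Detected genes were planned for cells with 1000 to 1500 UMIs, but 1 day 84 pool held only 13 such IM-CD cells, so 500 to 1000 was used. UMIs differed between conditions inside that range too, so genes were also read at 750 UMIs from a line in each pool. Clusters named are the other CD clusters, the inner medullary clusters, PT and ISOM-TAL, and of the rest at most the 3 whose ratio changed most; OSOM-TAL_a, OSOM-TAL_b, Fib and Endo_b were named after their values were seen. The cluster, the references and the tests were chosen with earlier results of these data known.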

Additional observations from a re-analysis of the deposited data

Results flagged for a closer look

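In 6 of 18 groups of 4 pools one pool lay further from the others than Dixon's 95% limit, where chance gives about 0.9. These groups are related measures of the same pools, so the 6 flags are not independent. All fell on D28 pool 4, Control 2 or D28 pool 1. D28 pool 4 had a median of 1001 UMIs and 815 detected genes per IM-CD cell, below the other 3 day 28 pools (1673 to 1742 UMIs and 1218 to 1289 genes). Control 2 had a median of 1279 UMIs against 1077 to 1097 in the other control pools, and 1.55% mitochondrial UMIs against 0.705% to 0.812%. D28 pool 1 had 0.156% mitochondrial UMIs against 0.0137% to 0.0272% in the other day 28 pools, and 33.1% of its IM-CD cells had no mitochondrial UMI against 79.3% to 88.0%.

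Day 84 differed from day 28 in 5 measures of IM-CD cells by a test of the difference itself in limma. In the exact permutation test 0.0667 is the smallest p that this comparison can give. Their number rose relative to OSOM-TAL_a by 2.31 (adjusted p = 0.0498) and to PT-S1S2 by 3.49 (adjusted p = 0.0223) on the log2 scale. Median UMIs changed by -1.26 (adjusted p = 1.52e-04), median detected genes by -1.07 (adjusted p = 3.03e-05) and genes among cells with 500 to 1000 UMIs by -0.20 (adjusted p = 0.00983). In UMIs and in genes 100% of the 17 clusters were lower at day 84 past the threshold, and 37.5% of 8 clusters were lower in genes with 500 to 1000 UMIs. Inside that range the D84 cells were shallower than those of D28, and at 750 UMIs on a line fitted in each pool the change in genes was 0.0029 (limma adjusted p = 0.936).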

How the results depend on the processing

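Over 626 refits of 36 results, 545 were classed as the same, 33 lost a call, 16 gained one, 11 counts moved and 21 changed sign. A change was classed as the same if it kept its call and direction. Counts of clusters needed only a similar number, such as 7 to 11 lower ratios at D84 beside 10. All alternatives with fixed UMI windows, other reference clusters or the probe barcode were chosen after seeing the data. The cause of each change below was not tested, unless named.

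On the log2 odds scale, the D28 change in the share of CD cells was -1.61 and -0.65 with 1000 to 1500 and 500 to 1000 UMIs, neither of which passed, and 0.074 among deepIM-CD and IM-CD cells alone, where D84 gave 0.38. At D84 it passed in limma with at least 500 genes and at most 5% mitochondrial UMIs (-1.90), with 1000 to 1500 UMIs (-5.03) and with only the 2 conditions compared in the fit (-1.16), and so did the share of all cells under the first of these (-1.48) and the second (-4.22). The cut at 500 genes equals the IM-CD median of the second D84 pool, whereas the lowest control first quartile was 738. It therefore removes a larger part of the IM-CD cells at D84 than in the controls. D84 against D28 turned to -3.42 and -0.43 in the windows of 1000 to 1500 and 500 to 1000 UMIs for CD cells and to -1.70 in the first for all cells.

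Median UMIs relative to other CD cells changed at D28 by -0.52 with OM-CD_a as the reference, -0.35 with OM-CD_b, 0.92 with Uro, 0.93 with deepIM-CD, and -0.0029 without the 5% of cells with most UMIs. At D84 they gave -0.25 with OM-CD_a, -0.27 with OM-CD_b, 0.71 with deepIM-CD, -0.10 under the stricter filter and -0.13 without those 5%, and for D84 against D28 0.27, 0.073 and, as a mean of log2 values, 0.083. The fall in UMIs at D84 did not pass under the stricter filter (-0.68), which removes a larger part of the shallow D84 cells. Genes at D28 gave -0.053 and -0.0070 in the deeper windows. With 750 to 1000 UMIs they gave -0.087 at D28 and -0.093 for D84 against D28, neither of which passed, and at D84 the call held (-0.18, limma adjusted p = 0.00275, 50% of 4 clusters lower; 25% at D28). On the line at 750 UMIs the D84 call was lost (-0.067) and D84 against D28 turned to 0.0029. Without Control 1 the line gave -0.045 at D28 and -0.042 at D84, neither of which passed. The relative mitochondrial share at D28 passed with a pseudocount of 0.05 (1.47), and for D84 against D28 it was -0.15 with OM-CD_a and -0.18 with deepIM-CD.

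Counts of higher ratios for D84 against D28 were 1 without the 5% of cells with most UMIs and 0 to 5 over leave-one-out fits, and for D84 against control 1 under the stricter filter and 0 to 1. Leaving out each pool in turn, the D84 share of CD cells ran from -1.78 to -0.53, UMIs from 0.33 to 0.59 at D28 and from -0.95 to -0.76 at D84, UMIs relative to other CD cells from 0.26 to 0.49 at D28, genes with 500 to 1000 UMIs from -0.25 to -0.17 for D84 against D28, genes at D84 from -0.91 to -0.71, and the relative mitochondrial share from 0.65 to 1.87 at D28 and from -0.42 to 0.90 for D84 against D28, where it turned to -0.42 without D28 pool 4 and to -0.30 without D84 pool 2.

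Control and D28 pools of one number carry the same probe barcode, but their deviations correlated at -0.42, 0.54, 0.04 and 0.40, so they were not taken as pairs. With the pool number as a replicate block the call on UMIs over OM-CD_a was lost (-0.52, limma adjusted p = 0.0537), the ratio was lower for 17 clusters in place of 18, and no other D28 call on IM-CD changed. With the probe barcode as the replicate block over all pools, calls were lost for UMIs at D84 (-0.73), for genes with 500 to 1000 UMIs between D84 and D28 (-0.18), for UMIs over deepIM-CD at D84 (0.68, limma adjusted p = 0.0764) and for the 2 higher ratios (0 left). With only control and D28 in the fit, the D28 call on UMIs over OM-CD_a was lost (limma adjusted p = 0.0541), and with only control and D84 the D84 change passed (-0.25, limma adjusted p = 0.0300). The 13 IM-CD cells with 1000 to 1500 UMIs in one D84 pool were too few to compare genes there.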

Other observations

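Within each control pool, IM-CD and OM-CD_a cells were close in both depth and mitochondrial share, with medians of 1077 and 1078 UMIs in Control 1, 1279 and 1293 in Control 2, 1094 and 989 in Control 3, and 1097 and 1056 in Control 4. Their mitochondrial shares there were 0.780% and 0.860%, 1.55% and 1.59%, 0.812% and 0.883%, and 0.705% and 0.855%. At day 28 the OM-CD_a medians were 2647, 2180, 1870 and 1740 UMIs, each above the IM-CD median of its pool, and at day 84 they were 798 and 655.

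IM-CD cells that shared a droplet barcode with a cell of another pool of their condition made up 57.8% of IM-CD cells in the controls, 51.3% at day 28 and 23.1% at day 84, beside 57.5%, 48.6% and 24.7% of all cells. Their median UMI counts were 1135, 1537 and 632, against 1104, 1610 and 609 in IM-CD cells alone in their droplet.

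UMIs per detected gene, as the median over IM-CD cells, were 1.12 to 1.26 in the control pools, 1.23 to 1.37 at day 28, and 1.16 and 1.17 at day 84.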
